A study of Mus musculus with 39 samples.

Results

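The comparison described here sets whole testis of INSL3-KI mice against whole testis of wild-type (WT) mice at postnatal day 40 (P40), the oldest age sequenced in the series. It uses 6 of the 39 libraries, 3 WT and 3 INSL3-KI, and takes as members all 22036 Ensembl genes that the deposited count table of these libraries lists. Of these genes, 19541 had a read in at least 1 of the 6 libraries and 16851 passed the filter on low counts and were tested. Near the end, the P40 effects are set beside those of the same genotypes at postnatal day 8 (P8), in 6 further testis libraries. The INSL3-KI mice were homozygous for an allele in which a minke whale INSL3 cDNA had been placed in the mouse Insl3 locus of embryonic stem cells by homologous recombination, with the neomycin cassette later removed by Cre. All mice were on the C57BL/6J background, and WT animals of that strain served as controls. The allele is constitutive, and the authors describe the testes of mature mice of this genotype as lying in the groin. A library stands for a whole organ, so the peptide, the site of the testis and the mixture of cells in it cannot be told apart.

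INSL3 is a relaxin-like peptide hormone made by Leydig cells. It acts on the receptor RXFP2 in the gubernaculum, the cord that draws the fetal testis towards the scrotum, and its loss leaves the mouse testis undescended. Spermatogenesis runs from spermatogonia through meiotic spermatocytes to haploid spermatids, which build an acrosome and a flagellum and replace their histones with transition proteins and then protamines, all inside tubules lined by Sertoli cells. In the adult mouse most testicular RNA comes from spermatocytes and spermatids, which are the cells most sensitive to the higher temperature of an undescended testis.

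The libraries held between 34680790 and 42256290 reads counted to genes. Markers of germ, Sertoli and Leydig cells were present in all 6, while 13 of the 14 genes of the epididymal list had too few reads to be tested. Among those 13, Crisp1 had 4, 4 and 0 reads in WT and 83, 4 and 7 in INSL3-KI. Cst11 had 0, 0 and 0 in WT and 16, 8 and 32 in INSL3-KI. The part of epididymal tissue in any library was not tested. The WT libraries resembled each other closely, with Pearson correlations of log2 CPM across genes of 0.982 to 0.985, and so did INSL3-KI replicates 2 and 3, at 0.988. INSL3-KI replicate 1 stood apart from its group. Its correlation with the other INSL3-KI libraries was 0.945 and 0.946, and with the WT libraries 0.755 to 0.791, against 0.599 to 0.644 for INSL3-KI replicates 2 and 3. For 80.0% of the genes tested it lay nearer to the WT mean than the other INSL3-KI libraries did. The biological coefficient of variation was 0.147 within WT, 0.403 within INSL3-KI and 0.0998 between INSL3-KI replicates 2 and 3 alone, and results that rest on replicate 1 are therefore given with and without it. Mitochondrial transcripts took 1.45% to 1.67% of the counts in WT and 5.44%, 8.09% and 7.29% in INSL3-KI replicates 1, 2 and 3, and the part of that shift in the results was not tested.

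CPM here means counts per 1000000 counts of the library, with the library size scaled by TMM, edgeR's trimmed mean of M-values. A gene is called lower or higher where edgeR's quasi-likelihood test gave a Benjamini-Hochberg adjusted p under 0.01 over all genes tested, written below as edgeR adjusted p, and a fold change of at least 2. By that rule 3718 genes (22.1%) were lower in INSL3-KI and 4296 (25.5%) were higher. A fold of at least 4 was passed by 2439 genes (14.5%) in the lower direction and by 1152 (6.84%) in the higher direction. The 3 WT and 3 INSL3-KI values did not overlap for 14118 genes (83.8%), among them all called genes. Of the genes called lower, 142 had no read in any INSL3-KI library, and of those called higher, 15 had none in any WT library. Leaving out INSL3-KI replicate 1 gave 5330 lower (31%) and 4794 higher (27.9%) of 17205 genes, of which 3658 and 4265 were also called with it. Where leaving out a single library ended or gained the call of a gene named below, the adjusted p of that fit follows the one from all libraries. Leaving out WT replicate 1 or WT replicate 2 cut the lower calls to 2290 and 2306.

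**Figure D1:**
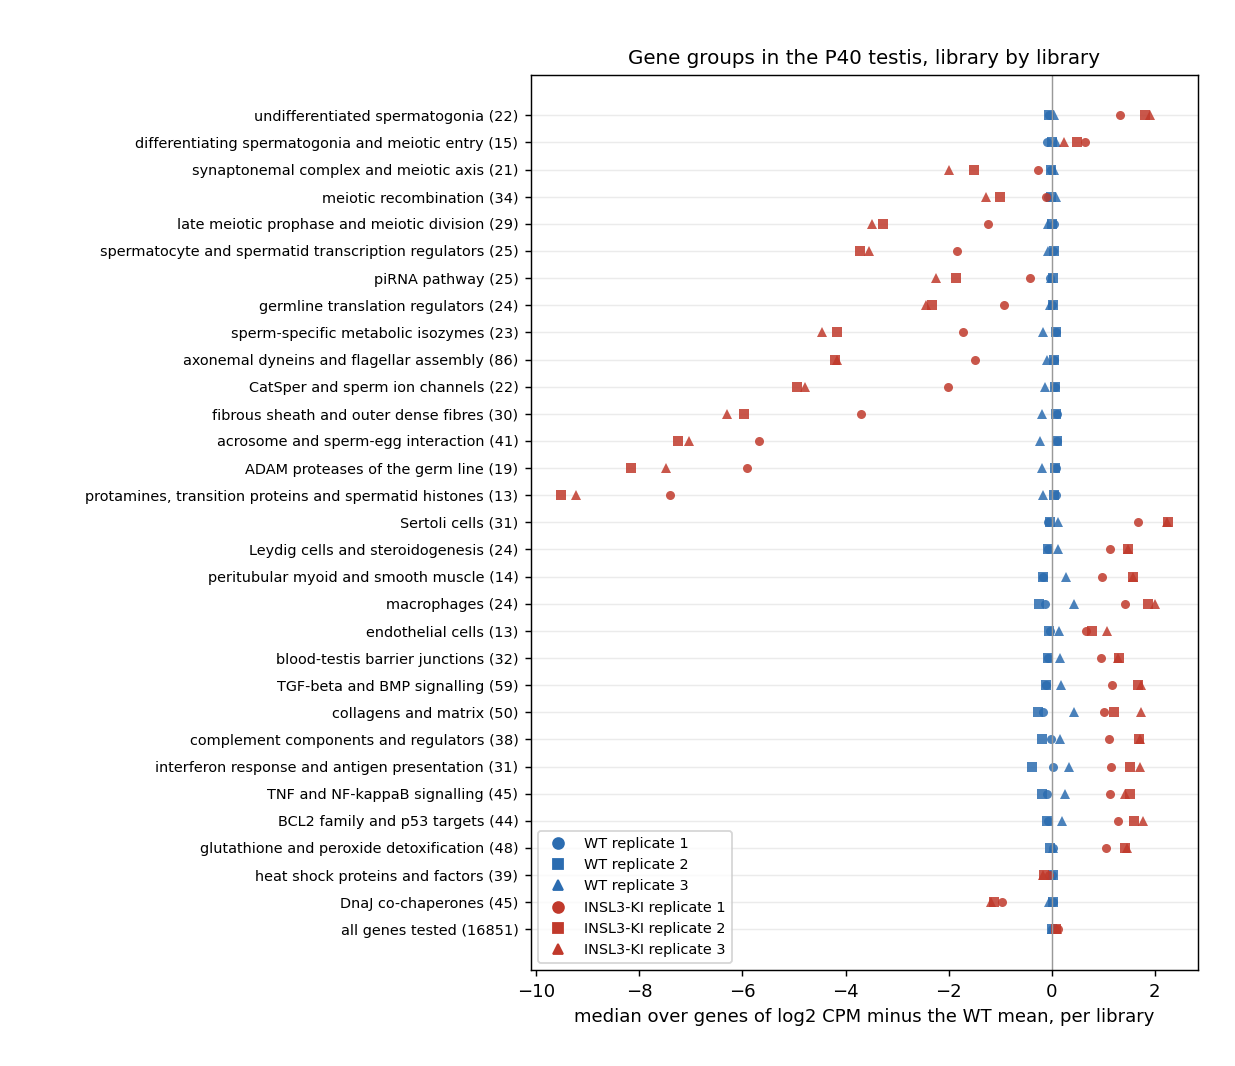
Median over the tested genes of each group (number of genes in brackets) of log2 CPM minus the WT mean, for each of the 6 P40 testis libraries, with WT in blue and INSL3-KI in red and a symbol for each replicate. The germ cell groups run from spermatogonia, right of 0 in INSL3-KI, to protamines and transition proteins at -7.40 to -9.51, the somatic groups lie mostly right of 0, and INSL3-KI replicate 1 lies nearest to WT in most groups.

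Mouse Insl3 itself was nearly absent from the INSL3-KI testes. The gene, on chromosome 8 of GRCm38 (chr8:71689214-71690575, plus strand), had 20183, 20887 and 29799 reads in WT and 445, 443 and 511 in INSL3-KI. In CPM this was 756, 699 and 870.3 CPM in WT and 9.996, 10.1 and 11.4 in INSL3-KI, a difference of log2 fold change -6.21 ± 0.21 (SE), edgeR adjusted p = 2.45e-05, or 73.8-fold. All INSL3-KI libraries, replicate 1 included, lay far below all WT libraries, so the labels and the counts of the targeted gene go together. The whale cDNA has no entry in the table and its level was not analysed here. Rxfp2, which encodes the INSL3 receptor and is also transcribed in germ cells, had 246, 211 and 249 reads in WT and 81, 5 and 6 in INSL3-KI. The groups did not overlap, but the difference did not pass the test with all libraries in the fit (log2 fold change -3.50 ± 1.00 (SE), edgeR adjusted p = 0.0181, and 1.18e-06 without INSL3-KI replicate 1). Insl6, a relaxin family gene of the testis, was at 100.2, 94.8 and 80.2 CPM in WT and 29.2, 4.55 and 4.45 in INSL3-KI. Insl6 likewise missed the threshold (log2 fold change -2.85 ± 0.80 (SE), edgeR adjusted p = 0.0177, and 7.43e-08 without INSL3-KI replicate 1). Of the 9 genes of the family 6 could be tested, and besides Insl3 the other member called was Insl5; without INSL3-KI replicate 1, 4 were lower. This hormone gene was lower, at 0.786, 0.602 and 0.584 CPM in WT and 0.0898, 0 and 0 in INSL3-KI (log2 fold change -4.30 ± 0.91 (SE), edgeR adjusted p = 0.00588, and up to 0.0262 without WT replicate 1, 2 or 3 or INSL3-KI replicate 2 or 3).

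**Figure D2:**
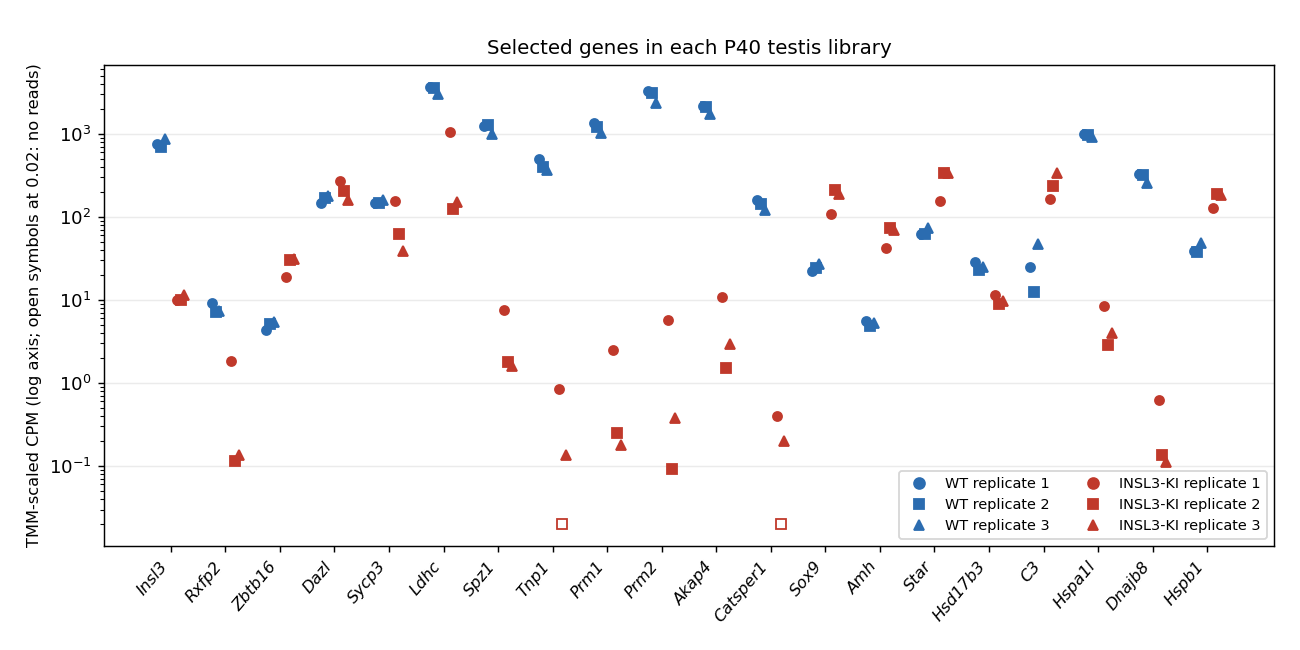
TMM-scaled CPM of 20 selected genes in each P40 testis library on a log axis, with WT in blue, INSL3-KI in red, a symbol for each replicate and open symbols at 0.02 for libraries with no read. Insl3 sits at 699 to 870 CPM in WT and at 9.996 to 11.4 in INSL3-KI, spermatid genes such as Tnp1 and Prm1 fall to the foot of the plot, and Sox9, Amh and C3 are higher in every INSL3-KI library.

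Of the lists examined here, that of the genes that package sperm DNA had the lowest median. Transition proteins, encoded by Tnp1 and Tnp2, and protamines, encoded by Prm1 and Prm2, replace histones in turn in elongating spermatids. The 250 bases before the RefSeq start of these 4 genes in GRCm38.p6 are printed because they are the start regions of the genes for these packaging proteins; capitals mark a match to TGACNTCA, the letters of a CRE-like element, on either strand.
Prm1, chr16:10796824-10797073, minus strand: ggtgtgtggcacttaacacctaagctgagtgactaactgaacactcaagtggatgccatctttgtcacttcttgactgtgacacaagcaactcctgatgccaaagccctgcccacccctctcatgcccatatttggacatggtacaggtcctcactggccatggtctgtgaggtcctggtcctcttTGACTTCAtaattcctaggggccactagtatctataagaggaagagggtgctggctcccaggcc
Tnp1, chr1:73015900-73016149, minus strand: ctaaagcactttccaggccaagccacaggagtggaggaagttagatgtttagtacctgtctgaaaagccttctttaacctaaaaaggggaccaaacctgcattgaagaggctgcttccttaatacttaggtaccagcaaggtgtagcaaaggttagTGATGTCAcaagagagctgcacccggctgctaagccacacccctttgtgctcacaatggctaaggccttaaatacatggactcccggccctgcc
Prm2, chr16:10792106-10792355, minus strand: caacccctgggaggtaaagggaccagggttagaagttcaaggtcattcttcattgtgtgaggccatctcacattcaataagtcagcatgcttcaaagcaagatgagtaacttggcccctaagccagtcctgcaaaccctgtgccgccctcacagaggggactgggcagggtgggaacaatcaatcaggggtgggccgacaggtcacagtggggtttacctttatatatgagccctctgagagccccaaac
Tnp2, chr16:10788656-10788905, minus strand: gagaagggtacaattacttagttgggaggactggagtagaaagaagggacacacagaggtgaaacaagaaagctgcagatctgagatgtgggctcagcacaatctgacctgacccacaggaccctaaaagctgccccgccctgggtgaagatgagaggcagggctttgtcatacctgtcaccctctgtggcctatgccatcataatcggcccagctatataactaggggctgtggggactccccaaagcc
Prm1 holds TGACTTCA 56 bases before the start and Tnp1 holds TGATGTCA 86 bases before it, while these letters are not in the windows of Prm2 and Tnp2. A match of letters is a description and not a measured binding site.

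In raw counts Tnp1 had 13299, 11837 and 12573 reads in WT and 38, 0 and 6 in INSL3-KI. Prm1 had 36071, 35646 and 35292 reads in WT and 111, 11 and 8 in INSL3-KI. Prm2 had 87648, 93183 and 79361 reads in WT and 257, 4 and 17 in INSL3-KI, and Tnp2 had 48622, 61626 and 70423 reads in WT and 369, 17 and 18 in INSL3-KI. INSL3-KI replicate 1 kept the most reads of each of the 4 genes, yet it too lay more than 2 orders of magnitude below any WT library. The differences were log2 fold change -10.30 ± 1.35 (SE), edgeR adjusted p = 0.000904 for Tnp1 and log2 fold change -10.25 ± 1.34 (SE), edgeR adjusted p = 0.00091 for Prm1. Prm2 passed as well (log2 fold change -10.44 ± 1.83 (SE), edgeR adjusted p = 0.00275, and up to 0.011 without WT replicate 1 or 2). The same was true of Tnp2 (log2 fold change -9.35 ± 1.64 (SE), edgeR adjusted p = 0.00273, and up to 0.0106 without WT replicate 1 or 2). Of the 13 tested genes of the list of protamines, transition proteins and spermatid histones, 10 were lower and none higher, with a median log2 fold change of -8.81 beside 0.09 over all genes tested. The median of the list in single INSL3-KI libraries was -7.40, -9.51 and -9.23 for replicates 1, 2 and 3. In whole testis, fewer cells of a type and less RNA per cell cannot be told apart, here and in every group below.

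Genes for other parts of the sperm were lower too. The 10 genes with the largest falls by the ratio of mean CPM, at a mean of at least 10 CPM in WT, all had a detected level in every WT library. They were Ttc24, Tex29, Ubqlnl, H2al2a, Fscn3, Prss51, Prm2, Actl11, Tnp1 and Oxct2a. Genes with no read in any INSL3-KI library, such as Adam34 below, were ranked by a lower bound at a floor of 3 counts per library. Their true falls can be larger than that rank. Ubqlnl, a ubiquilin-like gene, was at 339, 354 and 297 CPM in WT and 0.449, 0.0910 and 0.112 in INSL3-KI. Fscn3, which encodes a fascin of spermatids, was at 289, 296 and 257 CPM in WT and 0.517, 0.0682 and 0 in INSL3-KI. Oxct2a, which encodes a sperm-specific enzyme of ketone body use, was at 288, 318 and 272 CPM in WT and 0.584, 0.0455 and 0.0671 in INSL3-KI. The groups of these 3 genes were separated by more than 2 orders of magnitude, with log2 fold change -10.55 ± 0.70 (SE), edgeR adjusted p = 0.000171 for Ubqlnl. The sperm mitochondrial capsule gene Smcp, which is among the 5 called genes with the highest mean FPKM in WT, was at 1888, 1951 and 1702 CPM in WT and 6.96, 1.32 and 0.939 in INSL3-KI (log2 fold change -9.23 ± 1.06 (SE), edgeR adjusted p = 0.000591).

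Acrosome and egg-binding genes were lower in 27 of 41 tested, with none higher and a median of -6.46. Spaca7, which encodes an acrosomal protein released during the acrosome reaction, was at 67.9, 63.2 and 48.3 CPM in WT and 0.202, 0 and 0 in INSL3-KI (log2 fold change -9.72 ± 0.84 (SE), edgeR adjusted p = 0.00033). Acrv1, another acrosomal matrix gene, was at 186, 191 and 143 CPM in WT and 1.75, 0.637 and 0.470 in INSL3-KI (log2 fold change -7.50 ± 0.60 (SE), edgeR adjusted p = 0.000282). Acr, which encodes the protease acrosin, was at 306, 298 and 254 CPM in WT and 54.4, 7.48 and 7.54 in INSL3-KI. Acr did not pass with all libraries in the fit (log2 fold change -3.63 ± 0.89 (SE), edgeR adjusted p = 0.0103, and 2.32e-08 without INSL3-KI replicate 1). Without that library 39 of the 41 were lower, against 23 to 26 when any other library was left out. Of the ADAM proteases of the germ line, a family of membrane proteins needed for sperm to migrate and bind the egg, 13 of 19 were lower with a median of -7.17, and all 19 were lower without replicate 1. Adam34 had 621, 729 and 587 reads in WT and 0, 0 and 0 in INSL3-KI, which makes it at least 319.6-fold lower at a floor of 3 counts per library.

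The 2 lists of flagellar genes differed in their medians. Fibrous sheath and outer dense fibre genes, which build the stiff casing of the tail, were lower in 23 of 30 with a median of -4.94. Akap4, the main protein of the fibrous sheath, was at 2164, 2121 and 1734 CPM in WT and 10.98, 1.501 and 2.91 in INSL3-KI (log2 fold change -8.61 ± 0.97 (SE), edgeR adjusted p = 0.000568). Odf2, an outer dense fibre gene, was at 5086, 4874 and 4190 CPM in WT and 645, 163 and 171 in INSL3-KI (log2 fold change -3.85 ± 0.66 (SE), edgeR adjusted p = 0.00251, and up to 0.0113 without WT replicate 1 or 2). Axonemal dyneins and flagellar assembly genes, many of which are transcribed from the spermatocyte stage on, had a median of -2.67. Of 86 genes 25 (29.1%) were lower, beside 22.1% of all genes tested. Dnah8, a heavy chain of the outer dynein arms and the member with the most reads, was at 1691, 1698 and 1771 CPM in WT and 832, 109 and 117 in INSL3-KI. Replicate 1 lay between the WT and the other INSL3-KI libraries, and the difference did not pass (log2 fold change -2.29 ± 0.86 (SE), edgeR adjusted p = 0.0471, and 1.93e-08 without INSL3-KI replicate 1). Without replicate 1, 79 of the 86 axonemal genes and all 30 sheath and dense fibre genes were lower. Without any other library the axonemal count was 10 to 14. With all libraries, replicate 1 included, DESeq2 called 80 of the 86 and all 30 lower, so these counts depend on the test too.

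Ion channels and energy enzymes of the sperm tail were lower in part. Of 22 tested genes of the CatSper calcium channel and other sperm channels, 10 were lower and 1 was higher (median -3.25), and the lower count was 20 without replicate 1 and 6 to 8 without any other library. Catsper1, a pore subunit of the channel that admits calcium into the tail, was at 161, 144 and 122 CPM in WT and 0.404, 0 and 0.201 in INSL3-KI (log2 fold change -9.44 ± 0.86 (SE), edgeR adjusted p = 0.000368). The member that rose was Hvcn1, a proton channel gene that is also used by immune cells, at 1.46, 0.435 and 1.46 CPM in WT and 4.99, 10.03 and 12.1 in INSL3-KI (log2 fold change 3.01 ± 0.55 (SE), edgeR adjusted p = 0.00315, and up to 0.0124 without WT replicate 1 or 3). Among 23 sperm-specific metabolic isozymes 9 were lower and none higher (median -2.93; 22 lower without replicate 1). Aldoart1, a germ cell aldolase gene, was at 148, 151 and 120 CPM in WT and 0.337, 0.0455 and 0.112 in INSL3-KI (log2 fold change -9.70 ± 0.61 (SE), edgeR adjusted p = 0.000146). Ldhc, the lactate dehydrogenase of germ cells, was at 3667, 3560 and 2969 CPM in WT and 1059, 123 and 150.4 in INSL3-KI, with replicate 1 well above the other INSL3-KI libraries. Ldhc did not pass (log2 fold change -2.94 ± 0.91 (SE), edgeR adjusted p = 0.0248, and 8.26e-08 without INSL3-KI replicate 1).

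Among the regulators of the late germ cells, 12 of 25 transcription regulators were lower and 1 was higher (median -2.85; 21 lower without replicate 1). Spz1, a bHLH-zip factor of the testis, was at 1249, 1257 and 1004 CPM in WT and 7.62, 1.77 and 1.59 in INSL3-KI (log2 fold change -8.32 ± 0.86 (SE), edgeR adjusted p = 0.000454). Rfx2, which drives ciliary and spermatid genes, was at 777, 797 and 737 CPM in WT and 222, 42.9 and 37.4 in INSL3-KI. Rfx2 missed the threshold (log2 fold change -2.93 ± 0.76 (SE), edgeR adjusted p = 0.0126, and 2.28e-08 without INSL3-KI replicate 1). The factor that rose was Foxj2, at 12.6, 12.1 and 15.4 CPM in WT and 31.1, 52.7 and 47.8 in INSL3-KI (log2 fold change 1.71 ± 0.23 (SE), edgeR adjusted p = 0.000963). Late meiotic prophase and division genes were lower in 9 of 29 (31%), beside 22.1% of all genes tested (median -2.13). The count was 25 without replicate 1 and 4 to 7 without any other library. Calr3, a chaperone gene of the endoplasmic reticulum of late germ cells, was at 94.1, 88.9 and 87.4 CPM in WT and 4.27, 3.55 and 3.44 in INSL3-KI (log2 fold change -4.58 ± 0.14 (SE), edgeR adjusted p = 2.14e-05), with all 3 INSL3-KI libraries close together. Hspa2, the germ cell HSP70 needed at the end of prophase, was at 2060, 2084 and 1994 CPM in WT and 864, 194 and 169.9 in INSL3-KI. Hspa2 did not pass (log2 fold change -2.32 ± 0.69 (SE), edgeR adjusted p = 0.0207, and 3.16e-08 without INSL3-KI replicate 1).

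The piRNA pathway, which silences transposons in germ cells, and the regulators of germline translation had medians nearer to 0. Of 25 piRNA genes 3 (12%) were lower and 1 was higher (median -1.26), beside 22.1% lower over all genes tested. Without replicate 1 the lower count was 20. Kif17, a kinesin gene of spermatids on that list, was at 562, 596 and 470.3 CPM in WT and 6.94, 4.37 and 4.38 in INSL3-KI (log2 fold change -6.70 ± 0.30 (SE), edgeR adjusted p = 5.26e-05). The member that rose was Piwil4, at 0.487, 0.301 and 0.876 CPM in WT and 2.47, 3.003 and 4.29 in INSL3-KI (log2 fold change 2.53 ± 0.45 (SE), edgeR adjusted p = 0.00283, and 0.0152 without WT replicate 1). Ddx4, an RNA helicase gene of germ cells in general, was at 699.6, 687 and 606 CPM in WT and 331, 97.0 and 82.9 in INSL3-KI (log2 fold change -1.96 ± 0.57 (SE), edgeR adjusted p = 0.0192, and 1.71e-07 without INSL3-KI replicate 1). Of 24 translation regulators 4 (16.7%) were lower, again beside 22.1% (median -1.76). The count was 15 without replicate 1 and 2 without any other library. Pabpc1, the general poly(A)-binding protein gene, was at 4371, 4436 and 4347 CPM in WT and 2364, 811 and 727 in INSL3-KI. It did not pass (log2 fold change -1.75 ± 0.52 (SE), edgeR adjusted p = 0.021, and 6.51e-08 without INSL3-KI replicate 1).

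For genes of earlier stages the medians lay nearer to 0. The synaptonemal complex is the protein scaffold that joins homologous chromosomes in meiotic prophase. It had 4 of 21 genes (19%) lower and none higher, beside 22.1% and 25.5% of all genes tested, with a median of -1.04. Sycp3, a component of its lateral elements, was at 147, 148 and 158 CPM in WT and 156, 61.5 and 39.0 in INSL3-KI. Replicate 1 was within the WT range and the other INSL3-KI libraries were below it, and the difference did not pass (log2 fold change -0.82 ± 0.50 (SE), edgeR adjusted p = 0.173, and 8.32e-05 without INSL3-KI replicate 1). The list's median in single libraries was -0.26, -1.51 and -1.98 for INSL3-KI replicates 1, 2 and 3, and the number lower was 16 without replicate 1 and 2 or 3 without any other library. With library size as the scale 2 genes of the list were lower and 3 higher. Syce2, a central element gene, was lower in all INSL3-KI libraries (103, 94.4 and 89.7 CPM in WT and 23.7, 17.3 and 16.7 in INSL3-KI; log2 fold change -2.31 ± 0.17 (SE), edgeR adjusted p = 0.000245). Meiotic recombination genes were lower in 3 of 34 (8.82%) and higher in 2 (5.88%), under the shares of 22.1% and 25.5% over all genes tested. Their median of -0.71 came to -0.12 when libraries were scaled by their size alone. M1ap was the clearest fall (98.1, 102 and 79.7 CPM in WT and 14.7, 17.7 and 13.04 in INSL3-KI; log2 fold change -2.62 ± 0.17 (SE), edgeR adjusted p = 0.000166), and the list had 19 lower without replicate 1 and 1 or 2 without any other library.

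Genes of undifferentiated spermatogonia took a larger share of the reads in INSL3-KI. In the list of undifferentiated spermatogonia, which holds the stem cells of the testis, 11 of 22 genes were higher and 1 lower (3 lower without INSL3-KI replicate 1), and the median log2 fold change was 1.78 by TMM but -0.42 when libraries were scaled on the Sertoli cell genes. Zbtb16, a transcription factor gene needed for stem cell maintenance, was at 4.38, 5.12 and 5.37 CPM in WT and 19.05, 30.1 and 31.0 in INSL3-KI (log2 fold change 2.43 ± 0.23 (SE), edgeR adjusted p = 0.000387). Foxo1, a factor of the same cells, was at 17.0, 19.0 and 22.5 CPM in WT and 46.0, 74.9 and 79.0 in INSL3-KI (log2 fold change 1.78 ± 0.24 (SE), edgeR adjusted p = 0.00102). The member that fell was Tspan33 (20.9, 17.3 and 20.1 CPM in WT and 9.75, 7.19 and 7.25 in INSL3-KI; log2 fold change -1.27 ± 0.17 (SE), edgeR adjusted p = 0.00101). Of 15 genes of differentiating spermatogonia and meiotic entry 5 (33.3%) were higher and 1 (6.67%) lower, beside 25.5% and 22.1% of all genes tested. Without INSL3-KI replicate 1, 3 were lower. The median was 0.41 by TMM and -1.75 on the Sertoli scale. The summed level of this list was lower in INSL3-KI, at 1530, 1615 and 1594 CPM in WT and 1345, 952.9 and 852.2 in INSL3-KI. Dazl, an RNA-binding protein gene of germ cells from spermatogonia to spermatocytes, was at 148, 167 and 179 CPM in WT and 267, 204 and 160.2 in INSL3-KI. Stra8, which is induced by retinoic acid before meiosis, was at 14.9, 17.7 and 23.4 CPM in WT and 22.8, 27.4 and 24.3 in INSL3-KI. Neither Dazl (log2 fold change 0.35 ± 0.22 (SE), edgeR adjusted p = 0.181) nor Stra8 (log2 fold change 0.41 ± 0.19 (SE), edgeR adjusted p = 0.0879) passed the test. Of 20 cell proliferation genes 6 (30%) were higher and 2 (10%) lower, beside 25.5% and 22.1% of all genes tested. Their median of -0.11 by TMM turned to 0.50 with library size as the scale. The lower count was 5 without INSL3-KI replicate 1 and 1 without any other library.

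Sertoli cell genes took a larger share of the reads in INSL3-KI. Of 31 genes tested 30 were higher and none lower, with a median log2 fold change of 2.08, which by the construction of the scale became -0.12 when libraries were scaled on this list. In single INSL3-KI libraries the median was 1.67, 2.25 and 2.24. Sox9, the transcription factor that specifies Sertoli cells, was at 22.2, 24.1 and 26.8 CPM in WT and 109.5, 211 and 189.9 in INSL3-KI (log2 fold change 2.80 ± 0.27 (SE), edgeR adjusted p = 0.000414). Fshr, their receptor for follicle-stimulating hormone, was at 5.69, 5.49 and 6.69 CPM in WT and 26.4, 41.8 and 43.0 in INSL3-KI (log2 fold change 2.64 ± 0.23 (SE), edgeR adjusted p = 0.000333). The member that was not called was Lrp2, a receptor gene for endocytosis, at 3.29, 2.64 and 1.90 CPM in WT and 1.59, 1.18 and 2.82 in INSL3-KI (log2 fold change -0.48 ± 0.40 (SE), edgeR adjusted p = 0.298). Trf, the transferrin gene with which Sertoli cells carry iron, was at 18.3, 14.0 and 28.0 CPM in WT and 199, 314 and 342 in INSL3-KI (log2 fold change 3.83 ± 0.36 (SE), edgeR adjusted p = 0.000391). Amh, the anti-Mullerian hormone gene that Sertoli cells shut down at puberty, was at 5.62, 4.88 and 5.29 CPM in WT and 42.2, 73.5 and 69.9 in INSL3-KI (log2 fold change 3.55 ± 0.25 (SE), edgeR adjusted p = 0.000192). Trf and Amh were the members still higher when libraries were scaled on the list itself, by 1.62 and 1.33 on the log2 scale.

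The junctions between Sertoli cells and the hormone receptors of the somatic cells moved in the same direction. Of 32 genes of the blood-testis barrier, the seal that keeps meiotic cells apart from the blood, 17 were higher and none lower, with a median of 1.15 by TMM and -1.05 on the Sertoli scale. Gja1, a connexin gene, was at 53.6, 56.5 and 52.4 CPM in WT and 222, 324 and 315 in INSL3-KI (log2 fold change 2.41 ± 0.19 (SE), edgeR adjusted p = 0.000281). Cldn11, a claudin gene of the barrier, was at 86.0, 85.7 and 108 CPM in WT and 347, 529 and 495 in INSL3-KI (log2 fold change 2.29 ± 0.23 (SE), edgeR adjusted p = 0.00042). Nectin3, an adhesion gene of spermatids that is on the same list, was at 547, 558 and 517 CPM in WT and 174, 30.6 and 34.8 in INSL3-KI. Nectin3 did not pass (log2 fold change -2.76 ± 0.73 (SE), edgeR adjusted p = 0.0142, and 2.39e-08 without INSL3-KI replicate 1). Of 8 hormone receptor genes 7 were higher (median 1.78 by TMM, -0.43 on the Sertoli scale).

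Leydig cells, the source of INSL3 and testosterone, gave a mixed result. Of 24 tested genes 15 were higher and 3 lower, with a median of 1.30 by TMM and -0.89 on the Sertoli scale. Star, which moves cholesterol into mitochondria for steroid synthesis, was at 61.3, 61.7 and 72.8 CPM in WT and 155, 338 and 335 in INSL3-KI (log2 fold change 2.08 ± 0.33 (SE), edgeR adjusted p = 0.0018, and up to 0.0111 without WT replicate 1 or 2). Lhcgr, the receptor for luteinizing hormone, was at 24.9, 26.6 and 33.0 CPM in WT and 122, 139 and 117 in INSL3-KI (log2 fold change 2.16 ± 0.16 (SE), edgeR adjusted p = 0.000218). Cyp17a1, whose enzyme converts progestogens to androgens, was at 355, 312 and 338 CPM in WT and 266, 276 and 289.9 in INSL3-KI, slightly below WT in every library. Cyp17a1 did not pass (log2 fold change -0.27 ± 0.14 (SE), edgeR adjusted p = 0.12). Hsd17b3, which encodes the last enzyme of testosterone synthesis, fell although most of the list rose, with 28.4, 23.1 and 24.8 CPM in WT and 11.3, 8.89 and 9.64 in INSL3-KI (log2 fold change -1.35 ± 0.15 (SE), edgeR adjusted p = 0.000519). Cyp19a1, the aromatase gene, which germ cells also transcribe, was at 4.01, 4.22 and 5.75 CPM in WT and 0.741, 0.205 and 0.134 in INSL3-KI (log2 fold change -3.68 ± 0.62 (SE), edgeR adjusted p = 0.00241, and up to 0.0111 without WT replicate 1, 2 or 3). Sult1e1, an estrogen sulfotransferase gene, was at 6.96, 7.83 and 7.97 CPM in WT and 1.06, 0.478 and 2.19 in INSL3-KI (log2 fold change -2.61 ± 0.52 (SE), edgeR adjusted p = 0.00453, and up to 0.0179 without WT replicate 1, 2 or 3). These 3 were the falls on the list, and 1 was called without any 1 WT library.

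Other cell types were followed by their markers. Peritubular myoid and smooth muscle genes were higher in 11 of 14 (median 1.37 by TMM, -0.83 on the Sertoli scale), but none was called without WT replicate 1, 1 without WT replicate 2, and 7 without INSL3-KI replicate 2 or 3. Acta2, the smooth muscle actin gene, was at 84.2, 78.3 and 127 CPM in WT and 196, 324 and 301 in INSL3-KI (log2 fold change 1.503 ± 0.28 (SE), edgeR adjusted p = 0.00372, and up to 0.0184 without WT replicate 1 or 2 or INSL3-KI replicate 2 or 3). Actg2, a gene of the same family on this list, went the other way with 262, 261 and 234 CPM in WT and 9.03, 13.9 and 13.5 in INSL3-KI (log2 fold change -4.38 ± 0.22 (SE), edgeR adjusted p = 7.87e-05). Macrophage genes were higher in 17 of 24 and lower in 2 (median 1.73 by TMM, -0.48 on the Sertoli scale), with 9 higher without WT replicate 1 or WT replicate 2 and 11 without INSL3-KI replicate 2 or 3, and 1 lower when any library other than INSL3-KI replicate 1 was left out. Lyz2, the lysozyme gene of macrophages, was at 22.9, 23.5 and 49.0 CPM in WT and 141, 158 and 204 in INSL3-KI (log2 fold change 2.40 ± 0.36 (SE), edgeR adjusted p = 0.00145). Aif1, which is often used as a macrophage marker, was instead at 202, 195 and 159.8 CPM in WT and 3.08, 2.73 and 2.86 in INSL3-KI (log2 fold change -6.00 ± 0.17 (SE), edgeR adjusted p = 2.14e-05), with no overlap and little spread. Of 19 lymphocyte genes only 7 had enough reads to be tested. Of these 2 (28.6%) were lower, beside 22.1% of all genes tested, and none was higher. None was called without WT replicate 1, WT replicate 2 or INSL3-KI replicate 3. Of 13 neutrophil and mast cell genes 3 were tested and none was called by edgeR, with adjusted p from 0.0181 for Mpo to 0.0694 for Cpa3 and an unadjusted p under 0.05 for 2 of them, and 1 was called lower by DESeq2. Without INSL3-KI replicate 1 Mpo was called lower by edgeR (adjusted p = 0.000214).

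Adipocyte genes were highest in a single library. The summed level of the 10 adipocyte genes was 20.7, 17.0 and 22.1 CPM in WT and 54.5, 56.5 and 219.5 CPM in INSL3-KI, so that replicate 3 stood far above its group. Car3, a carbonic anhydrase gene of fat and muscle, was at 2.43, 0.502 and 1.52 CPM in WT and 17.7, 18.9 and 96.2 in INSL3-KI. Fabp4, a fatty acid carrier of adipocytes, was at 1.12, 0.335 and 0.818 CPM in WT and 6.22, 7.83 and 27.0 in INSL3-KI. Cyp2e1, a cytochrome P450 gene of liver that fat also expresses, was at 0.562, 0.201 and 0.350 CPM in WT and 5.28, 6.80 and 26.5 in INSL3-KI. Replicate 3 was the highest for all 3 genes, and these are 3 of the 4 largest rises at a mean of at least 10 CPM. With all libraries in the fit Car3 passed (log2 fold change 4.90 ± 0.96 (SE), edgeR adjusted p = 0.0043, and up to 0.022 without WT replicate 1, 2 or 3). Fabp4 passed as well (log2 fold change 4.18 ± 0.77 (SE), edgeR adjusted p = 0.0033, and up to 0.0167 without WT replicate 1, 2 or 3). So did Cyp2e1 (log2 fold change 5.12 ± 0.85 (SE), edgeR adjusted p = 0.00218, and up to 0.0127 without WT replicate 1, 2 or 3). In all, 2 of 10 adipocyte genes (20%) were called higher, beside 25.5% of all genes tested. The count was none without any 1 of the WT libraries, 1 without INSL3-KI replicate 3 and 7 without INSL3-KI replicate 1. The part of adipose tissue in these values was not tested. Of 7 tested hepatocyte genes, Cyp2e1 among them, 4 were higher, but 2 without any 1 of the WT libraries. Their summed level was 13.4, 18.9 and 38.2 CPM in INSL3-KI, and Cyp2e1 made up most of it in replicate 3 but not in replicates 1 and 2. Endothelial genes were higher in 3 of 13 (23.1%), beside 25.5% of all genes tested (median 0.74 by TMM, -1.45 on the Sertoli scale). Their higher count was 5 without INSL3-KI replicate 1 and 1 or 2 without any other library. Skeletal muscle genes were higher in 3 of 11 (27.3%), again beside 25.5%, and lower in 1. That gene was called in no fit that left out a library other than INSL3-KI replicate 1. Erythroid genes were higher in 1 of 6 (16.7%), in none without WT replicate 3 and in 2 without INSL3-KI replicate 1.

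Car3, Fabp4 and Cyp2e1 were also called without INSL3-KI replicate 3. In the other large rises that library did not stand far above its group. These other genes were Ugt3a2, Efemp1, Rab7b, Kcnh3, Trf, Ppl and Kel. Ugt3a2, a glycosyltransferase gene, was at 1.35, 1.61 and 1.08 CPM in WT and 22.2, 40.2 and 36.8 in INSL3-KI (log2 fold change 4.62 ± 0.31 (SE), edgeR adjusted p = 0.000171). Efemp1, which encodes an extracellular fibulin, was at 2.96, 3.35 and 7.97 CPM in WT and 56.2, 79.5 and 89.9 in INSL3-KI (log2 fold change 3.98 ± 0.46 (SE), edgeR adjusted p = 0.000596). Kcnh3, a potassium channel gene, was at 2.73, 2.17 and 2.63 CPM in WT and 26.8, 45.2 and 43.6 in INSL3-KI (log2 fold change 3.94 ± 0.26 (SE), edgeR adjusted p = 0.000165). Among the called genes with the highest mean FPKM, the 5 that were higher were all mitochondrial transcripts, mt-Nd1, mt-Atp6, mt-Atp8, mt-Co3 and mt-Cytb. The calls of mt-Atp6, mt-Atp8 and mt-Co3 were lost without any 1 library other than INSL3-KI replicate 1, at an edgeR adjusted p of up to 0.0304, 0.0189 and 0.0397. That of mt-Cytb was lost without WT replicate 1 or WT replicate 2, at up to 0.013. For example mt-Nd1, a subunit gene of respiratory complex I, was at 1304, 1343 and 1539 CPM in WT and 3899, 5402 and 4917 in INSL3-KI (log2 fold change 1.76 ± 0.27 (SE), edgeR adjusted p = 0.00158, and up to 0.0116 without WT replicate 1 or 2). The fifth gene on the lower side, beside Prm1, Prm2, Tnp2 and Smcp, was the ubiquitin gene Ubb, at 3201, 3141 and 2966 CPM in WT and 1648, 1146 and 1035 in INSL3-KI (log2 fold change -1.28 ± 0.27 (SE), edgeR adjusted p = 0.00587, and up to 0.0321 without WT replicate 1, 2 or 3 or INSL3-KI replicate 2 or 3).

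By TMM, complement and interferon genes were called higher more often than lower. Complement components and regulators, the serum proteases and receptors that tag cells for removal, had 17 of 38 genes higher (44.7%) and 7 lower (18.4%), with a median of 1.58 by TMM and -0.64 on the Sertoli scale. Leaving out WT replicate 1 left 2 lower, and leaving out WT replicate 2 or 3 or INSL3-KI replicate 3 left 3. C3, the central component, was at 24.9, 12.4 and 47.3 CPM in WT and 166, 234 and 336 in INSL3-KI. The groups did not overlap although the WT libraries differed widely among themselves (log2 fold change 3.12 ± 0.55 (SE), edgeR adjusted p = 0.00284, and 0.0165 without WT replicate 1). Serping1, which encodes the inhibitor of C1, was at 38.6, 30.5 and 73.9 CPM in WT and 234, 318 and 358 in INSL3-KI (log2 fold change 2.67 ± 0.39 (SE), edgeR adjusted p = 0.00131). Cd55b, a complement regulator gene of male germ cells, was at 189, 189.7 and 176 CPM in WT and 29.3, 3.12 and 4.50 in INSL3-KI (log2 fold change -3.91 ± 0.92 (SE), edgeR adjusted p = 0.00899, and up to 0.0284 without WT replicate 1, 2 or 3 or INSL3-KI replicate 2 or 3). Interferon response and antigen presentation genes were higher in 20 of 31 and lower in none (median 1.46 by TMM, -0.72 on the Sertoli scale), but in 9 or 10 without WT replicate 1, WT replicate 2, INSL3-KI replicate 2 or INSL3-KI replicate 3. B2m, the light chain of class I molecules, was at 39.0, 28.5 and 47.4 CPM in WT and 94.3, 121 and 123 in INSL3-KI (log2 fold change 1.56 ± 0.22 (SE), edgeR adjusted p = 0.00124). H2-K1, a class I heavy chain gene, was at 93.3, 84.0 and 107 CPM in WT and 163, 165 and 186 in INSL3-KI, a difference under the fold threshold (log2 fold change 0.86 ± 0.15 (SE), edgeR adjusted p = 0.00242).

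Of 45 TNF and NF-kappaB genes 24 were higher and 1 lower, with a median of 1.38 by TMM and -0.80 on the Sertoli scale, and 13 were higher and none lower without WT replicate 1 or WT replicate 2. Without INSL3-KI replicate 1 or 2, 2 were lower. Vcam1, an adhesion gene of Leydig and endothelial cells, was at 89.9, 87.6 and 99.8 CPM in WT and 231, 265 and 248 in INSL3-KI (log2 fold change 1.42 ± 0.14 (SE), edgeR adjusted p = 0.000394). Rela, which encodes the p65 subunit of NF-kappaB, was at 77.1, 83.3 and 90.7 CPM in WT and 129, 149 and 143 in INSL3-KI, a difference under the fold threshold (log2 fold change 0.75 ± 0.13 (SE), edgeR adjusted p = 0.00257). Of 31 chemokine and receptor genes 10 (32.3%) were higher and 5 (16.1%) lower, beside 25.5% and 22.1% of all genes tested (median 0.78 by TMM, -1.31 on the Sertoli scale). The higher count was 4 without WT replicate 2 and 6 without INSL3-KI replicate 3, and the lower count was 2 without any 1 WT library and 3 without INSL3-KI replicate 3. Cxcl12, the ligand that holds stem cells in their niche, was at 20.3, 14.4 and 15.1 CPM in WT and 42.7, 72.0 and 74.5 in INSL3-KI (log2 fold change 1.92 ± 0.26 (SE), edgeR adjusted p = 0.00105). Ccr2, a receptor of monocytes, was at 0.449, 0.469 and 1.26 CPM in WT and 5.64, 7.51 and 10.6 in INSL3-KI (log2 fold change 3.42 ± 0.49 (SE), edgeR adjusted p = 0.00123). Cxcr5, a receptor of B cells, was at 4.27, 3.58 and 3.50 CPM in WT and 0.135, 0.0682 and 0.0671 in INSL3-KI (log2 fold change -5.34 ± 0.35 (SE), edgeR adjusted p = 0.000163). Of 28 coagulation genes 12 (42.9%) were higher and 6 (21.4%) lower, again beside 25.5% and 22.1% (median 0.99 by TMM, -1.20 on the Sertoli scale). The higher count was 6 without INSL3-KI replicate 3 and 7 without WT replicate 1.

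The TGF-beta family, which carries signals between the somatic cells of the testis and sets the deposit of matrix, had 31 of 59 genes higher and 4 lower (median 1.53 by TMM, -0.68 on the Sertoli scale), with 2 lower without any 1 library other than INSL3-KI replicate 1. Inha, the inhibin subunit gene of Sertoli cells, was at 133, 132 and 169 CPM in WT and 662, 921 and 842 in INSL3-KI (log2 fold change 2.48 ± 0.22 (SE), edgeR adjusted p = 0.000342). Amhr2, the receptor gene for anti-Mullerian hormone, was at 280.3, 298 and 272 CPM in WT and 663, 915 and 871 in INSL3-KI (log2 fold change 1.53 ± 0.20 (SE), edgeR adjusted p = 0.000834). The inhibitory Smad6 fell (30.2, 29.1 and 19.5 CPM in WT and 4.18, 6.92 and 5.88 in INSL3-KI; log2 fold change -2.21 ± 0.26 (SE), edgeR adjusted p = 0.000654). Collagens and matrix genes were higher in 22 of 50 and lower in 4 (median 1.33 by TMM, -0.87 on the Sertoli scale), but higher in 10 without WT replicate 1 and in 11 without WT replicate 2. The lower count was 2 without WT replicate 1, 2 or 3 or INSL3-KI replicate 2. Col18a1, a collagen gene of basement membranes, was at 38.1, 33.8 and 58.0 CPM in WT and 230.1, 413 and 396 in INSL3-KI, with WT replicate 3 the highest of its group (log2 fold change 2.999 ± 0.33 (SE), edgeR adjusted p = 0.000549). Col3a1, a fibrillar collagen gene, was at 94.4, 66.0 and 199 CPM in WT and 326, 421 and 570.1 in INSL3-KI. Col3a1 missed the threshold (log2 fold change 1.87 ± 0.46 (SE), edgeR adjusted p = 0.0105, and at most 0.00333 without WT replicate 3 or INSL3-KI replicate 1). Tnc, the tenascin C gene, was at 3.18, 3.48 and 4.29 CPM in WT and 0.382, 0.250 and 0.358 in INSL3-KI (log2 fold change -3.46 ± 0.28 (SE), edgeR adjusted p = 0.000307).

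The heat shock list had 10 of 39 genes higher (25.6%) and 6 lower (15.4%), beside 25.5% and 22.1% of all genes tested, with a median of -0.06 by TMM that turned to 0.54 with library size as the scale. The higher count was 6 without WT replicate 1, and the lower count was 11 without INSL3-KI replicate 1. Hspa1l, the HSP70 gene of spermatids, was at 986, 975 and 918 CPM in WT and 8.38, 2.87 and 4.05 in INSL3-KI (log2 fold change -7.56 ± 0.53 (SE), edgeR adjusted p = 0.000193). Hspb1, the small heat shock protein HSP27, was at 39.1, 37.7 and 48.8 CPM in WT and 128, 190.4 and 182 in INSL3-KI (log2 fold change 1.99 ± 0.21 (SE), edgeR adjusted p = 0.000463). Serpinh1, the collagen chaperone HSP47, was at 21.7, 16.9 and 27.2 CPM in WT and 97.2, 130.5 and 146 in INSL3-KI (log2 fold change 2.50 ± 0.24 (SE), edgeR adjusted p = 0.000402). Hsp90b1, a chaperone gene of the endoplasmic reticulum, was at 846, 856 and 819 CPM in WT and 1013, 953 and 920.4 in INSL3-KI (log2 fold change 0.19 ± 0.17 (SE), edgeR adjusted p = 0.326). DnaJ co-chaperones, which hand clients to HSP70, were lower in 23 of 45 and higher in 2 (median -1.10), but in 10 without WT replicate 1 or WT replicate 2 and in 13 or 14 without WT replicate 3, INSL3-KI replicate 2 or INSL3-KI replicate 3. Dnajb8, a testis gene, was at 328, 321 and 255 CPM in WT and 0.629, 0.137 and 0.112 in INSL3-KI (log2 fold change -9.99 ± 0.78 (SE), edgeR adjusted p = 0.000274). Dnajb6, which is widely expressed, was at 631, 631 and 582 CPM in WT and 250.3, 96.9 and 104 in INSL3-KI (log2 fold change -2.03 ± 0.41 (SE), edgeR adjusted p = 0.00474, and up to 0.0202 without WT replicate 1, 2 or 3 or INSL3-KI replicate 2 or 3).

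Genes of cell death and of the p53 response were higher in 28 of 44 and lower in 5 (median 1.48 by TMM, -0.68 on the Sertoli scale), with 8 lower without INSL3-KI replicate 1 and 2 or 3 without any other library. Phlda3, a p53 target that restrains AKT, was at 3.97, 4.22 and 5.40 CPM in WT and 31.0, 36.6 and 43.6 in INSL3-KI (log2 fold change 3.03 ± 0.20 (SE), edgeR adjusted p = 0.000163). Bbc3, which encodes the death protein PUMA, was at 3.33, 4.01 and 4.94 CPM in WT and 13.1, 16.6 and 19.4 in INSL3-KI (log2 fold change 1.995 ± 0.22 (SE), edgeR adjusted p = 0.000563). Bcl2l14, a family member of late germ cells, was at 441, 438 and 329 CPM in WT and 2.65, 0.341 and 0.492 in INSL3-KI (log2 fold change -8.43 ± 0.99 (SE), edgeR adjusted p = 0.000635). Mdm2, the ligase that degrades p53, was at 240.2, 244 and 235 CPM in WT and 144, 71.7 and 74.4 in INSL3-KI (log2 fold change -1.31 ± 0.30 (SE), edgeR adjusted p = 0.00797, and up to 0.0322 without WT replicate 1, 2 or 3 or INSL3-KI replicate 2 or 3). Glutathione and peroxide genes were higher in 28 of 48 and lower in 7 (median 1.34 by TMM, -0.83 on the Sertoli scale), with 4 lower without any 1 library other than INSL3-KI replicate 1. The falls included germ cell forms. Gpx4, a selenoprotein of the sperm midpiece, was at 1446, 1409 and 1178 CPM in WT and 291, 114 and 119.7 in INSL3-KI (log2 fold change -2.94 ± 0.44 (SE), edgeR adjusted p = 0.00144). Gstm5 was at 1873, 1763 and 1487 CPM in WT and 364, 73.1 and 82.8 in INSL3-KI (log2 fold change -3.30 ± 0.71 (SE), edgeR adjusted p = 0.00614, and up to 0.0227 without WT replicate 1, 2 or 3 or INSL3-KI replicate 2 or 3). Gstm1, a glutathione transferase gene of somatic cells, was at 365, 313 and 347 CPM in WT and 969.6, 1440 and 1302 in INSL3-KI (log2 fold change 1.86 ± 0.22 (SE), edgeR adjusted p = 0.000697).

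Retinoic acid, made from vitamin A, starts meiosis in the testis. Of 19 genes for its synthesis, breakdown and receptors 9 were higher and 2 lower (median 1.21 by TMM, -0.98 on the Sertoli scale). The lower count was 4 without INSL3-KI replicate 1, 1 without WT replicate 3 or INSL3-KI replicate 2, and none without WT replicate 1 or 2. Aldh1a1, the synthetic enzyme of Sertoli cells, was at 328, 317 and 356 CPM in WT and 1350, 1699 and 1799 in INSL3-KI (log2 fold change 2.28 ± 0.21 (SE), edgeR adjusted p = 0.000378). Aldh1a2, the form of spermatocytes, was at 186, 191 and 173 CPM in WT and 127, 46.4 and 46.2 in INSL3-KI. Aldh1a2 did not pass (log2 fold change -1.33 ± 0.43 (SE), edgeR adjusted p = 0.0278, and 1.8e-07 without INSL3-KI replicate 1). Lrat, which stores vitamin A as esters, was at 15.8, 17.7 and 12.4 CPM in WT and 2.54, 0.751 and 0.626 in INSL3-KI (log2 fold change -3.55 ± 0.57 (SE), edgeR adjusted p = 0.00198, and up to 0.0103 without WT replicate 1 or 2). Cyp26b1, an enzyme that breaks retinoic acid down, was at 45.6, 51.9 and 63.1 CPM in WT and 109.8, 182 and 176 in INSL3-KI (log2 fold change 1.54 ± 0.24 (SE), edgeR adjusted p = 0.00179, and 0.0106 without WT replicate 2).

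The scale set the direction of the median for most somatic lists and not for the late germ cell lists. Read counts are shares of a library, so a scale must be chosen, and the TMM factors were 0.795 to 0.839 in WT and 1.18 to 1.28 in INSL3-KI. Over all genes tested the median log2 fold change was 0.09 by TMM, 0.70 with library size alone and -2.07 with factors from the Sertoli list. On that last scale 11767 genes (69.8%) were lower and 31 (0.184%) higher, and 566 genes had calls opposite to those by TMM. Lower genes made up 46.4% of the calls by TMM, 57.7% with DESeq2, 55.0% with DESeq2's size factors in edgeR, 27.4% with library size, 33.8% and 32.4% with limma on log2(FPKM + 1) and log2(FPKM + 0.1), and 99.7% on the Sertoli scale. The medians of the lists of protamines, acrosome, ADAM, sheath, axoneme, channel and metabolic genes were below 0 on every one of these scales. Of the somatic lists, the medians of the adipocyte (0.33) and hepatocyte (0.82) lists stayed above 0 on the Sertoli scale, and that of the lymphocyte list was below 0 on each scale. The 31 genes higher on the Sertoli scale included Trf, Amh, Ugt3a2, Kcnh3, Efemp1, Rab7b, Ppl and Kel, named above. Prss35, a serine protease gene chosen here after its values were seen, was also among them (33.8, 26.8 and 43.9 CPM in WT and 288, 436 and 429.6 in INSL3-KI).

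**Figure D3:**
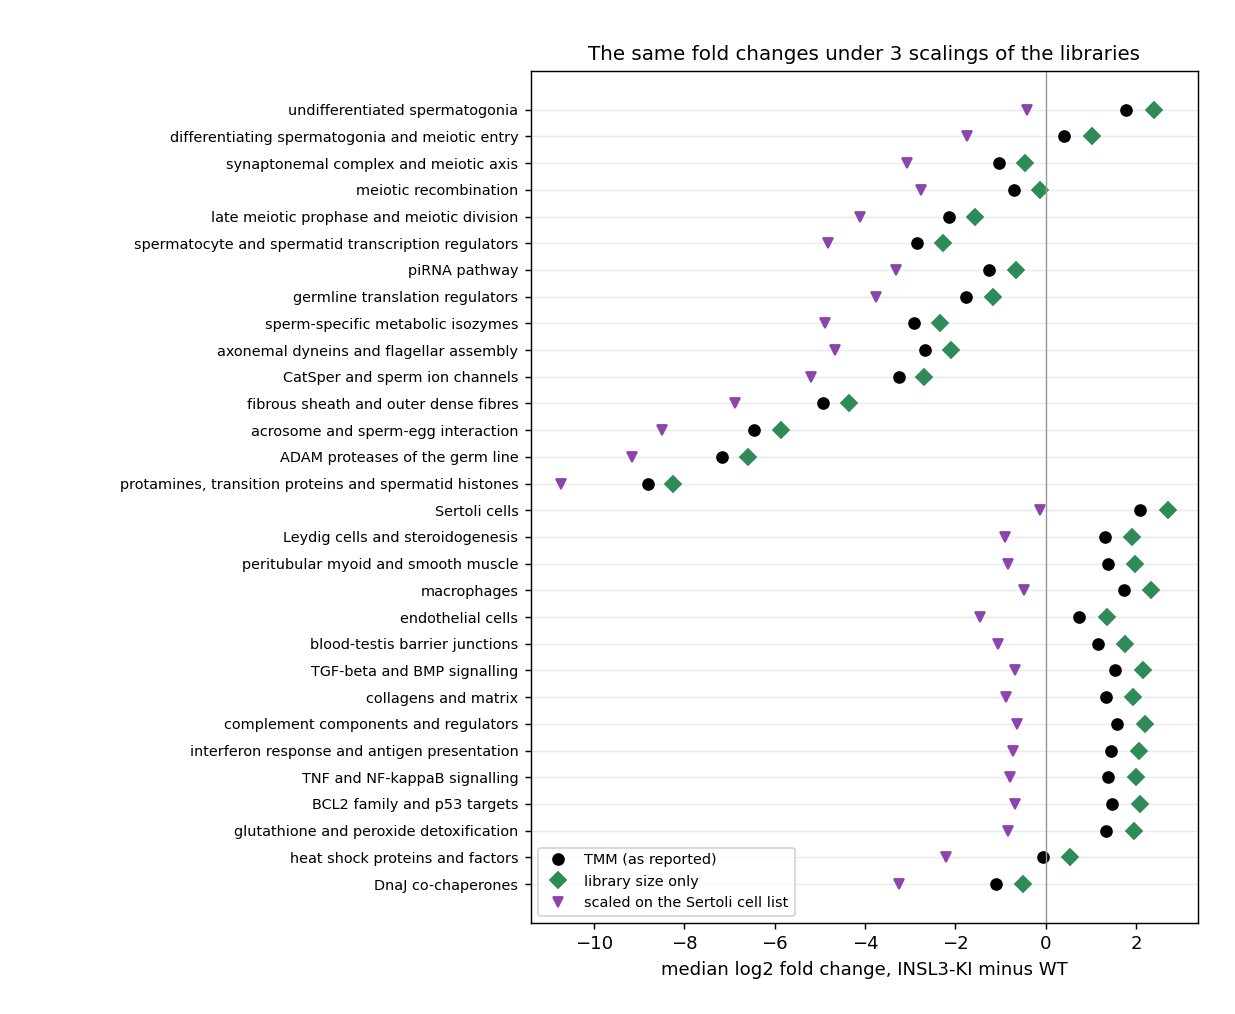
Median log2 fold change (INSL3-KI minus WT) over the tested genes of each group in the P40 testis, with TMM as black circles, library size alone as green diamonds and the Sertoli list as purple triangles. The protamine list lies left of 0 at every scale, as do the other spermatid groups, while the Sertoli list moves from 2.08 by TMM to -0.12 on its own scale.

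The X chromosome differed from the autosomes. Of 767 tested genes on the X 398 (51.9%) were higher and 164 (21.4%) lower, against 24.2% higher and 22.0% lower on the autosomes, and the median log2 fold change was 1.29 against 0.05. X-linked genes took 1.01% to 1.06% of CPM in WT and 2.29%, 3.38% and 3.39% in INSL3-KI replicates 1, 2 and 3. In mouse spermatocytes the X chromosome is silenced during meiosis, while somatic cells and spermatogonia transcribe it. A change of scale shifts all genes by about the same amount, so the offset from the autosomes is kept by construction. Medians were 1.90 against 0.65 for library size and -0.87 against -2.12 for the Sertoli list. On the latter scale 325 X genes were lower and 1 was higher. Without INSL3-KI replicate 1 the counts were 401 higher and 168 lower. Maged1, an X-linked gene chosen after its values were seen, was at 228, 227 and 256 CPM in WT and 763, 1243 and 1167 in INSL3-KI (log2 fold change 2.16 ± 0.25 (SE), edgeR adjusted p = 0.000587). The X-linked spermatid gene Akap4 described above fell.

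On the Y chromosome 28 of 50 tested genes (56%) were lower and 9 (18%) higher, and 26 of the 28 lower genes carry predicted-gene names. Whether reads of these genes were split between similar copies was not tested. The single-copy Y genes Ddx3y, Uty and Kdm5d, chosen after their values were seen, were higher. Ddx3y was at 13.7, 13.7 and 14.0 CPM in WT and 40.6, 54.0 and 59.1 in INSL3-KI. Uty was at 6.81, 6.39 and 8.64 CPM in WT and 19.9, 24.5 and 22.2 in INSL3-KI, and Kdm5d was at 5.504, 4.28 and 6.02 CPM in WT and 16.5, 22.5 and 22.8 in INSL3-KI. Chromosome 14 had the largest share of lower genes among the autosomes, 231 of 691 (33.4%), of which 100 carry predicted-gene names; among its other genes 131 of 533 (24.6%) were lower, against 20.4% of such genes overall. Of 13 mitochondrial genes 11 (84.6%) were higher, with a median of 1.49 by TMM and -0.72 on the Sertoli scale.

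**Figure D4:**
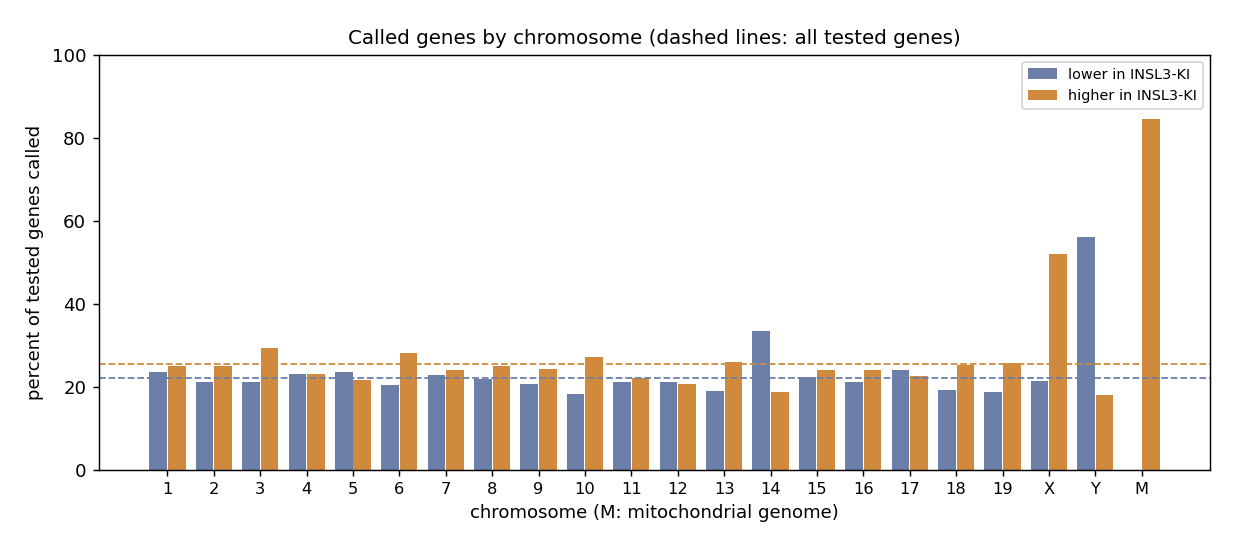
Percent of tested genes on each chromosome that were called lower or higher in INSL3-KI testis at P40, with dashed lines at 22.1% and 25.5% for all genes tested. The X chromosome reaches 51.9% higher, the Y chromosome 56% lower and the mitochondrial genome 84.6% higher, and most autosomes lie close to the lines.

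The start regions of the lower genes differed in letters from those of the others. Within 250 bases before the RefSeq start, and on both strands, TGACNTCA was found for 400 of 2873 lower genes (13.9%), 215 of 3329 higher genes (6.46%) and 481 of 6763 genes that were not called (7.11%), and in 7.49% of all 32851 windows. Genes were matched by symbol, 12965 in all. A gene counted where any of its windows matched, while the share of all windows counts each window singly and includes untested genes. These are unlike measures. Among the late germ cell lists it was in 13 of 35 acrosome genes, 9 of 24 sheath and dense fibre genes, 3 of 10 genes of the protamine list and 4 of 17 metabolic isozymes. It was in 1 of 9 ADAM genes, 4 of 69 axonemal genes, 0 of 17 channel genes, 2 of 23 late meiotic genes and 1 of 19 transcription regulators. The full palindrome TGACGTCA, which the looser letters include, was in 2.58%, 2.22% and 2.90% of lower, higher and uncalled genes and in 1.55% of all windows. CCGCCC, the core of a GC box, was in 46.6%, 63.6% and 58.8%, and in 32.7% of all windows. TATAAA was in 9.43%, 8.83% and 8.61% (12.4% of all windows), and CCAAT in 38.8%, 38.9% and 40.7% (33.8%). These 5 motifs were searched after the calls were known, genes near each other and from 1 family are not independent, and nothing follows from the counts about any factor.

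At P8, before haploid cells form, the same genotypes differed much less. Of 15838 genes tested 509 (3.21%) were lower and 478 (3.02%) higher in INSL3-KI. The ages share no library. An interaction term over the 12 libraries found the INSL3-KI effect lower at P40 than at P8 for 3939 of 17540 genes (22.5%) and higher for 4040 (23%). Insl3 was lower at both ages, with a log2 fold change of -6.96 at P8 (edgeR adjusted p = 0.000488), and its interaction did not pass (edgeR adjusted p = 0.0532). For the synaptonemal complex the median lay above 0 at P8 and below 0 at P40. At P40 4 of 21 genes were called lower, and the median of INSL3-KI replicate 1 was -0.26. At P8 17 of 21 genes were higher and none lower, with a median of 2.44, and 19 of 21 had an effect that was lower at P40. Of 34 recombination genes 17 were higher and 1 was lower at P8, and 25 had a lower effect at P40. Sycp3 had a log2 fold change of 3.56 at P8 (edgeR adjusted p = 0.00483).

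At P8 the later germ cell groups were high in 1 library. The median of the axonemal list at P8 was 0.44, 3.30 and 0.39 above the WT mean on the log2 scale in INSL3-KI replicates 1, 2 and 3, and that of the ADAM list was 1.17, 4.87 and 0.41. Synaptonemal genes were high in all 3 P8 INSL3-KI libraries, at 2.34, 2.94 and 2.09, and so were recombination genes, at 2.07, 1.95 and 1.84. The P8 WT libraries also differed among themselves, at 0.61, -0.13 and -0.41 for synaptonemal and 0.45, -0.21 and -0.23 for recombination genes. The authors instead describe a modest suppression of meiotic and spermatogenic genes at P8. What sets that difference was not tested. The interaction was lower at P40 for 56 of 86 axonemal, 23 of 41 acrosomal and 22 of 30 sheath and dense fibre genes. The share over all genes was 22.5%. In the somatic groups the interaction went the other way. It was higher at P40 for 22 of 31 Sertoli, 15 of 24 Leydig, 35 of 59 TGF-beta and 37 of 50 collagen and matrix genes. The share over all genes was 23%. At P8 itself 13 of these TGF-beta, 7 matrix, 5 Leydig and 3 Sertoli genes were lower, beside 3.21% of all genes tested. Higher at P8 were 2 of the Leydig and 5 of the Sertoli genes. The X chromosome median at P8 was -0.06.

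**Figure D5:**
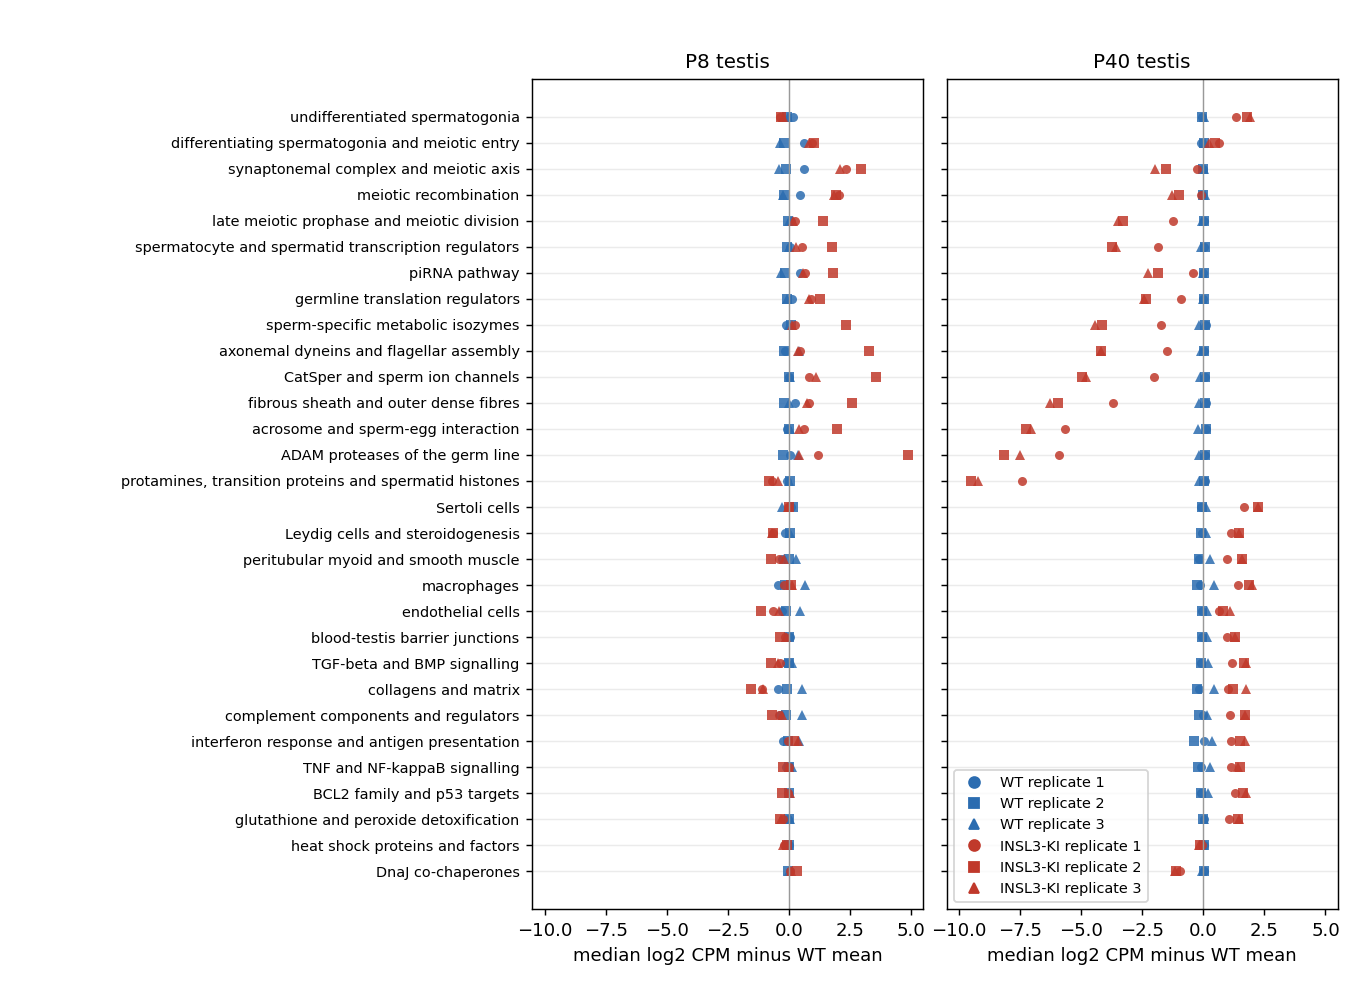
Median over the genes of each group of log2 CPM minus the WT mean in each testis library at P8 (left) and P40 (right), with WT in blue, INSL3-KI in red and a symbol for each replicate. At P8 INSL3-KI replicate 2 lies far right of its group for the spermatid lists other than the protamine list, and all INSL3-KI libraries lie right of 0 for the synaptonemal and recombination lists, and at P40 all spermatid lists lie far to the left.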

How the data were processed

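For whole testis the authors isolated total RNA with TRIzol, made mRNA libraries, sequenced both ends on a NovaSeq and aligned the reads to GRCm38 with HISAT2. The counting program, annotation and strand setting are not given in the sources used here, so reads of overlapping or antisense genes cannot be told apart. The deposited table gives each gene a raw count and an FPKM value, the latter normalized by the authors for gene length and depth. Loci outside Ensembl took 3.04% to 3.35% of the counts of a P40 testis library and were left out.

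Groups came from the sample titles, which give 3 biological replicates each, and the authors describe these as independent. Counts of the 6 P40 libraries (34680790 to 42256290 each) were tested by edgeR 4.0.16 in R 4.3.3 (quasi-likelihood, TMM, no covariate, filterByExpr with minimum count 10 and minimum total count 15). A call needs a Benjamini-Hochberg adjusted p under 0.01 and a fold of at least 2. The SE is the log2 fold change divided by the root of the F statistic. The interaction of genotype and age was fitted on the 12 libraries of P8 and P40. Alternatives used DESeq2 1.42.0, limma 3.58.1 on log2(FPKM + 1) and log2(FPKM + 0.1), other scales and filters, a fold of 4, an adjusted p of 0.05, the replicate number as a block, and each library left out. The scripts were tested on simulated data.

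Members, gene lists and tests were chosen with earlier results of these data known. Lists, written from general knowledge, are described by counts and medians, with no set test. Genes were named by these rules: Insl3 and Rxfp2; in each direction the 10 called genes with the largest folds, no predicted-gene name and 10 CPM or more on average in the higher group, and the 5 called genes of highest mean FPKM; in each list the 3 members of highest mean CPM, the largest called fold in each direction at 1 CPM or more, and members called against the others where at most 5 were. Not all are printed, and other list members stand as examples of a count. Chromosomes came from GENCODE vM21 (16847 of 16851 tested genes matched) and start regions from RefSeq on GRCm38.p6.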

Additional observations from a re-analysis of the deposited data

Results flagged for a closer look

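The effect of INSL3-KI on testis differed between P8 and P40 for many genes by edgeR's quasi-likelihood test of the interaction. It was lower at P40 for 3939 of 17540 genes and higher for 4040, at an adjusted p under 0.01 and a difference of at least 2-fold. At P8 INSL3-KI replicate 2, and at P40 INSL3-KI replicate 1, stood apart from their groups; without the former the counts were 3379 and 3686, and without the latter 4667 and 4362. What sets the difference between the ages was not tested.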

How the results depend on the processing

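The counts of 3718 lower and 4296 higher genes moved by more than 1.5 times when libraries were scaled by size alone (6624 higher), on the Sertoli list (11767 lower and 31 higher), by limma at a pseudocount of 0.1 on FPKM (6706 higher) and with a fold of 4 (2439 lower and 1152 higher). Leaving out 1 library gave 2290 to 5330 lower and 3339 to 4794 higher, with the lowest lower counts without WT replicate 1 (2290) and WT replicate 2 (2306). The count of genes with a lower effect at P40 than at P8 was 3939 as reported, 2621 with library size alone and 2845 to 4667 with 1 library left out, and the count with a higher effect was 4040 as reported and 3566 to 4362 with 1 library left out. Correlations of same-numbered deviations were 0.120, -0.073 and 0.203, and 2 WT replicates matched best with the INSL3-KI library of the same number. Whether the replicate numbers pair the libraries cannot be told from these values. With the replicate number as a block the counts were 3381 lower and 3902 higher, and 3611 lower and 4024 higher for the interaction. For the genes named here, 1646 values recomputed under the alternatives kept direction and side of the threshold, 141 fell short of it, 74 newly passed it and 27 turned direction, all on the Sertoli scale. On that scale the log2 fold changes were -0.70 for Acta2, -0.68 for Amhr2, -0.63 for B2m, -0.19 for Bbc3, -0.31 for Cxcl12, -0.67 for Cyp26b1, -1.76 for Dazl, -0.31 for Ddx3y, -0.50 for Foxj2, -0.44 for Foxo1, -0.35 for Gstm1, -1.31 for H2-K1, -1.97 for Hsp90b1, -0.21 for Hspb1, -0.23 for Kdm5d, -0.004 for Lhcgr, -0.057 for Maged1, -1.43 for Rela, -0.16 for Star, -1.75 for Stra8, -0.57 for Uty, -0.75 for Vcam1, -1.05 for mt-Atp6, -1.13 for mt-Atp8, -1.08 for mt-Co3, -0.51 for mt-Cytb and -0.43 for mt-Nd1. By the construction of that scale the median Sertoli gene stands near 0. At 3 libraries a group, the counts for meiotic, axonemal and channel genes depended on INSL3-KI replicate 1, as given with each list, and on the test. DESeq2 with all libraries called lower 9 of 21 synaptonemal, 13 of 34 recombination, 23 of 29 late meiotic, 80 of 86 axonemal and 20 of 22 channel genes. It also called lower 12 of 25 piRNA and 15 of 24 translation genes, beside 5496 of 19541 genes in all. Genes below the filter on low counts were not tested by edgeR.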
